A study of Rattus norvegicus with 18 samples.

Results

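Genes of the cardiac sarcomere and its Z-disc were followed in rat heart allografts through the first week after transplantation. They were taken as the probe sets with a single platform gene symbol on a list of 39 genes, keeping for each gene the probe set with the highest mean over 18 arrays. Of the 39 genes, 35 were measured, out of 14217 genes with such a probe set. Myh7b, Nebl and Xirp2 had none, and Actc1, cardiac actin, lay only on 5 probe sets annotated to more than 1 gene, so these 4 have no value here.

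Hearts of inbred Wistar Furth rats (RT1.Au) were placed in the abdomen of ACI recipients (RT1.Aa), adult males in both cases, as a second heart beside the recipient's own. CsA+peptide recipients had cyclosporine by gavage at 10 mg/kg/day from day 0 to day 2 and an allochimeric class I peptide, [a1h1/u]-RT1.Aa, at 1 mg/kg into the portal vein at surgery. CsA recipients had the same cyclosporine course, a dose the labels call sub-therapeutic, and untreated recipients had neither; no sham injection is described. Graft and T cell RNA was measured at days 1, 3 and 7, with 1 array for each of the 3 treatments, 3 days and 2 tissues, 18 in all. The labels do not give the number of animals behind an array, nor which organ the T cells came from. All grafts were allografts, so the day differences have no ungrafted or syngeneic heart beside them. Because each combination has a single array, p-values rest on how unevenly treatments and days combine, and that unevenness may be technical.

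The sarcomere is the contractile unit of striated muscle. Thick filaments of myosin slide along thin filaments of actin, tropomyosin and troponin, titin spans from the Z-disc to the M-band, and the Z-disc anchors the thin filaments of neighbouring units through alpha-actinin. Z-disc and intercalated disc proteins also sense stretch, and a small group of chaperones and ubiquitin ligases builds and removes the contractile proteins.

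Promoters are shown for 6 members: Ky, Cmya5, Mylk3 and Flnc, which had the largest day 7 falls, and Myl4 and Synpo2l, whose courses went the other way over part of the week. These 6 were chosen after their values were seen. Each line holds the 250 bases before an annotated transcript start, 5′ to 3′ on the gene's strand, from RefSeq on GRCr8. Capitals mark a match to one of 6 searched motifs. In order, the windows are chr8:111965612-111965861 (plus strand), chr2:26113274-26113523 (minus strand), chr19:37881745-37881994, chr4:58999297-58999546, chr10:89975900-89976149 and chr15:3684760-3685009 (the last 4 on the plus strand). The Mylk3, Myl4 and Synpo2l windows lie inside the annotated span of the gene. The Flnc window lies partly inside its gene, which is annotated from chr4:58999445.
Ky: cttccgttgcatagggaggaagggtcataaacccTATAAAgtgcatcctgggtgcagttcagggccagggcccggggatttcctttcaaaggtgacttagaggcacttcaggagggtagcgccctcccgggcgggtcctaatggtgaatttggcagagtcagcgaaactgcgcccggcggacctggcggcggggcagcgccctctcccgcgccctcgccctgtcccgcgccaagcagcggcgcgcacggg
Cmya5: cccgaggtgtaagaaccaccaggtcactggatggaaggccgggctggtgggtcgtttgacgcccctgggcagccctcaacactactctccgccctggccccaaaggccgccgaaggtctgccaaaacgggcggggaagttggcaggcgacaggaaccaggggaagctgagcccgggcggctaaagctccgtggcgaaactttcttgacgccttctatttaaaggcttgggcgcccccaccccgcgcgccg
Mylk3: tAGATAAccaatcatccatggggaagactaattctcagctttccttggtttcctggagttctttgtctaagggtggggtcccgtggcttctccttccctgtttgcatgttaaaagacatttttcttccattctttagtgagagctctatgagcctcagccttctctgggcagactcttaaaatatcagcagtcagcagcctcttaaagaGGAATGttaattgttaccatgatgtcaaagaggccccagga
Flnc: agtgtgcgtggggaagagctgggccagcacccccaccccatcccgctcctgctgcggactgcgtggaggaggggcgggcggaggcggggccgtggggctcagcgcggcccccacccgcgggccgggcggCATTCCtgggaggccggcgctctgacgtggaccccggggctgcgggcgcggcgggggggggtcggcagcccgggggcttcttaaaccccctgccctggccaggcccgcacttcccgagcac
Myl4: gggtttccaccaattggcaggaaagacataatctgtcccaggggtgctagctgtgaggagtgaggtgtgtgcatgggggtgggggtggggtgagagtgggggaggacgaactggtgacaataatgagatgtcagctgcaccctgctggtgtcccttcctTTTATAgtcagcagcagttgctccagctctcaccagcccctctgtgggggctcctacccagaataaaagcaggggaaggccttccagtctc
Synpo2l: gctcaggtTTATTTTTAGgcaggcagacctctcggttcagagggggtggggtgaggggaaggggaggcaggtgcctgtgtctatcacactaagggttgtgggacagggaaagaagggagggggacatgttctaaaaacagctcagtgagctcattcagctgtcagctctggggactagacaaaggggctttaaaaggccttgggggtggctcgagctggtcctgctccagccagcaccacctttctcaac

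Motifs were searched on both strands in these windows for the 28 of 35 members with an entry and for all 33469 promoters of the table. Members were counted as genes, out of 28, with a match in any of their entries. The percentages are of single promoter entries. A gene with more than 1 entry has more chances of a match, so the counts and percentages are unlike measures. The MEF2 site (by name) was found in 7 members, Fhl2, Mybpc3, Myoz2, Smpx, Synpo2l, Ttn and Xirp1, and in 2.96% of all promoters. The CArG box (by name) was found in 3 members and 1.5% of all promoters, and the MCAT element CATTCC in 8 members and 12.1%. The GATA site, searched as AGATAA, was found in 7 members and 10.3% of promoters. The FoxO site, searched as GTAAACA, was found in 1 member (Trim63) and 3.21%, and the TATA box, searched as TATAAA, in 4 members and 12.9%. A CArG box and a MEF2 site can share bases. These are matches of letters in a window, not shown binding sites. Among the printed promoters Cmya5 held none of the 6, Ky and Myl4 a TATA box, Mylk3 an MCAT element and a GATA site, Flnc an MCAT element, and Synpo2l a MEF2 site.

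The level in T cells is given as a description. Of the 35 members, 29 did not pass the filter on low values in T cells and entered the comparison through the graft arrays alone, so for them a low value in T cells was part of how they came to be tested, and the count supports nothing. All 35 were called lower in T cells than in grafts (adjusted p below 0.05 in limma, log2 scale; 35.5% of all probe sets tested), with differences from -8.62 to -1.05. The summed intensity of the 35 probe sets was 3543 to 4573 in T cell arrays and 209340 to 295971 in graft arrays. The other 6 members were tested within T cells, and 0 of them passed in any T cell comparison; at day 7 minus day 1, 0.575% of all probe sets did, and at an unadjusted p below 0.05 it was 2 of 6 members and 23.9% of all probe sets. For Fhl2, an adaptor protein, that day difference passed in 3 alternative settings (0.70, adjusted p = 0.0437, with centring on array medians).

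By day 7 most of the sarcomere genes were lower in the grafts than at day 1 relative to the whole array, a direction that turned for up to 21 of them when arrays were centred on other cardiomyocyte genes. On the log2(intensity + 16) scale, 27 of 35 members fell and 0 rose, against 33.8% of all probe sets called lower and 30.9% called higher, and 8 did not pass the test. The members' median difference was -0.51, against -0.02 over all probe sets tested. In the untreated grafts 32 of 35 members were lower at day 7, in CsA grafts 31 and in CsA+peptide grafts 34. At day 3 minus day 1, 7 members fell and 1 rose (12.9% and 14.6% of all probe sets), with a median of -0.12. The day 3 count changed with the processing: 11 fell with quantile normalization, 14 with centring on array medians, 4 without the untreated arrays and 3 without the CsA arrays, and the 1 that rose became 2 and 0 without those arrays. Between days 3 and 7, 21 members fell and 2 rose (29.4% and 26.9%), with a median of -0.38.

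The fall was measured against the whole array and its direction as a family depends on that choice. Centred on the median level of 13 other cardiomyocyte genes, day 7 minus day 1 gave 4 members lower and 14 higher. With each of those genes first centred on its own mean, it gave 8 lower and 10 higher, and with 5 metabolic genes also left out of that list, 18 lower and 7 higher. Each centring also raised the median of all probe sets, and the members' median stayed below it. A member called higher here is thus higher relative to those genes, not to the whole array. The share of all probe sets called under each centring is not given. The last 2 settings were added after the data were seen, and the 5 genes were chosen after their differences were seen. The 13 genes themselves had 11 members lower and 0 higher at day 7 (33.8% and 30.9% of all probe sets), with a median of -0.46. In bulk tissue, fewer heart muscle cells and less RNA of a gene per cell cannot be told apart.

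Other cell types moved over the same days. Of all probe sets, 33.8% were called lower and 30.9% higher at day 7 minus day 1. At day 3 minus day 1 the shares were 12.9% and 14.6%, and at day 7 minus day 3 they were 29.4% and 26.9%. T cell markers, 9 of 9 tested, were higher at day 7, and their summed level (10 genes) was 1394 to 2436 at day 1, 1821 to 2854 at day 3 and 20276 to 24867 at day 7. Macrophage and monocyte markers, 10 of 11, were higher, with sums of 18397 to 18944 at day 1, 27383 to 34549.9 at day 3 and 64653 to 71014 at day 7. Endothelial markers, 7 of 7, were lower, with sums of 13614 to 14718, then 12740.2 to 13616, and 6225 to 8314. Fibroblast and matrix markers, 8 of 10, were higher at day 3 (median 0.84), 10 of 10 were lower at day 7 than at day 3, and 6 were higher and 1 lower at day 7 than at day 1. Their sums were 64921 to 72115 at day 1, 108108 to 118148 at day 3 and 73958 to 96691 at day 7. Of smooth muscle and pericyte markers 2 were higher and 3 lower at day 7 (10 tested), of erythroid markers 0 of 4 were called, and of B cell markers 2 of 2 were higher. The 3′ to 5′ ratio of beta-actin, a measure of RNA integrity and labelling, was 1.84 to 2.44 at day 1, 1.64 to 1.87 at day 3 and 1.41 to 1.43 at day 7. The 3′ to 5′ ratio of GAPDH was 1.495 to 1.574 at day 1 and 1.506 to 1.649 at day 3. At day 7 it was 1.513 to 1.542, within the ranges of both earlier days. The part of the cell type and beta-actin shifts in the members' values was not tested.

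**Figure D1:**
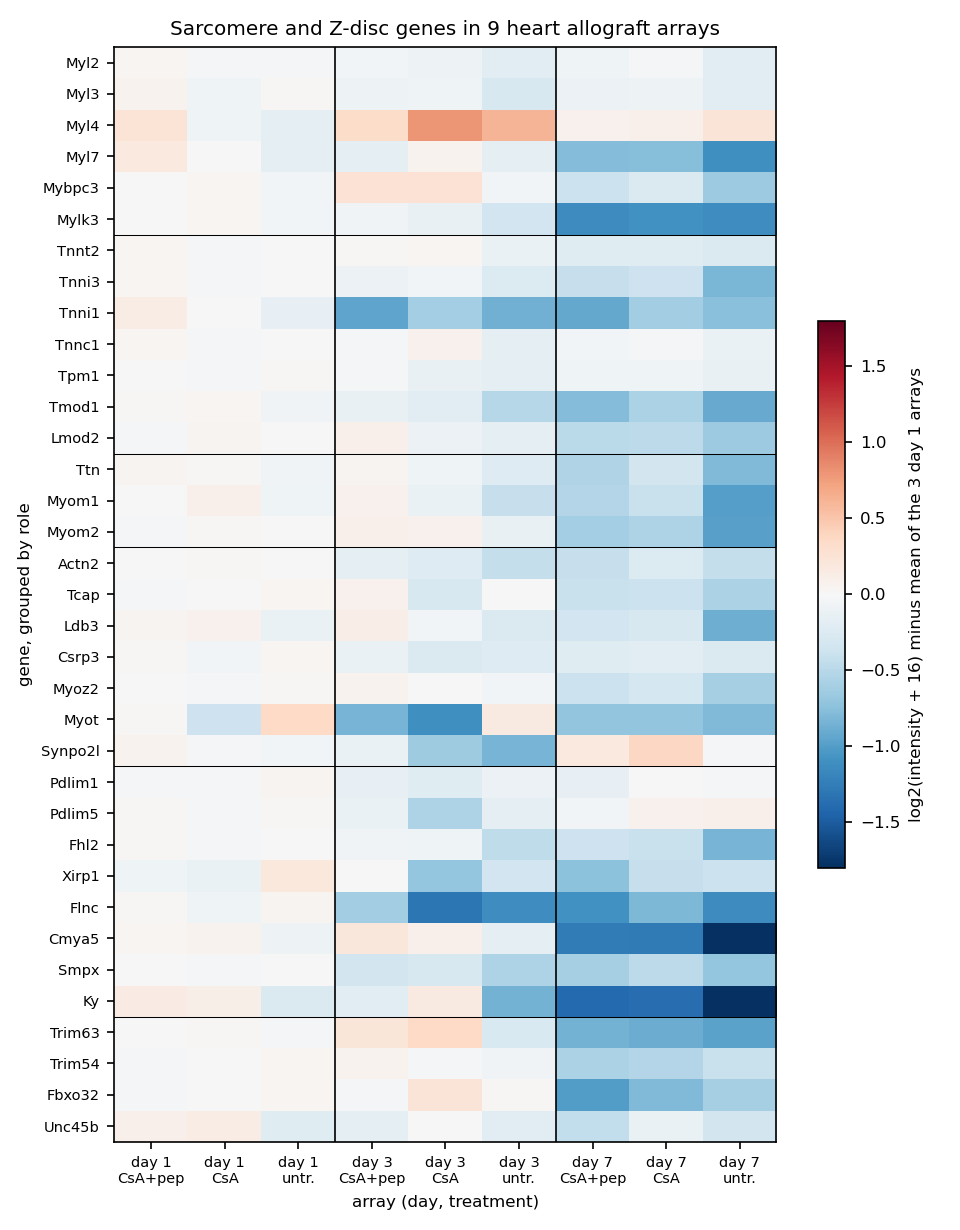
Each row is one of 35 genes, grouped by role, and each column a heart array (CsA+pep, cyclosporine plus peptide; CsA, cyclosporine; untr., untreated); colour is log2(intensity + 16) minus the mean of the 3 day 1 arrays of the gene. Most rows are blue in the 3 day 7 columns, a direction that turns for 21 genes when arrays are centred on other cardiomyocyte genes, while Myl4 is red at day 3 and Synpo2l is blue at day 3 and not at day 7.

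Of 6 thick filament genes, 3 fell by day 7 (33.8% of all probe sets). Mylk3 gave 8750.1 in CsA+peptide, 8901 in CsA and 8429 in untreated grafts at day 1, then 8316 in CsA+peptide, 7924 in CsA and 6832 in untreated grafts at day 3, and 3971 in CsA+peptide, 4074 in CsA and 3989.7 in untreated grafts at day 7. Mylk3, the cardiac myosin light chain kinase at chr19:37858298-37916805, was lower in all 3 treatments at day 7, with no overlap between days 1 and 7, a difference of -1.11 ± 0.06 (adjusted p = 3.93e-06). Myl7 gave 7120.4 in CsA+peptide, 6292 in CsA and 5632 in untreated grafts at day 1, then 5639 in CsA+peptide, 6604 in CsA and 5641 in untreated grafts at day 3, and 3687 in CsA+peptide, 3714 in CsA and 2933 in untreated grafts at day 7. This atrial regulatory light chain fell by day 7, -0.88 ± 0.08 (adjusted p = 4.16e-05), and the 3 day 7 arrays lay below every earlier one. Mybpc3 gave 10698 in CsA+peptide, 10854 in CsA and 10282 in untreated grafts at day 1, then 12660.3 in CsA+peptide, 12683 in CsA and 10279 in untreated grafts at day 3, and 8142 in CsA+peptide, 8888 in CsA and 6766 in untreated grafts at day 7. Mybpc3, cardiac myosin-binding protein C, did not pass at day 3, 0.16 ± 0.06 (adjusted p = 0.108), and fell by day 7, -0.43 ± 0.06 (adjusted p = 5.77e-04). Myl4 gave 2999 in CsA+peptide, 2375 in CsA and 2236 in untreated grafts at day 1, then 3178 in CsA+peptide, 4394 in CsA and 3866 in untreated grafts at day 3, and 2647 in CsA+peptide, 2692 in CsA and 2944 in untreated grafts at day 7. Myl4, the atrial essential light chain, rose at day 3, 0.58 ± 0.14 (adjusted p = 0.0206), and fell between days 3 and 7, -0.45 ± 0.14 (adjusted p = 0.026), with the day 3 rise small in the CsA+peptide grafts. The ventricular light chains Myl2 and Myl3 did not pass the test at day 7, -0.10 ± 0.05 (adjusted p = 0.0836) and -0.13 ± 0.06 (adjusted p = 0.0884).

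Of 7 thin filament genes, 5 fell by day 7 (33.8% of all probe sets). Tnni1 gave 682 in CsA+peptide, 624 in CsA and 559 in untreated grafts at day 1, then 313 in CsA+peptide, 400.2 in CsA and 334 in untreated grafts at day 3, and 319 in CsA+peptide, 395 in CsA and 362 in untreated grafts at day 7. Slow skeletal troponin I, the fetal cardiac form, fell by day 3, -0.81 ± 0.10 (adjusted p = 0.00294), and was -0.77 ± 0.10 (adjusted p = 3.41e-04) at day 7; all day 3 and day 7 arrays lay below all day 1 arrays. Tmod1 gave 4754 in CsA+peptide, 4825 in CsA and 4516 in untreated grafts at day 1, then 4293 in CsA+peptide, 4119 in CsA and 3280.3 in untreated grafts at day 3, and 2740.3 in CsA+peptide, 3162 in CsA and 2509 in untreated grafts at day 7. Tropomodulin 1 caps the pointed end of the thin filament, and it fell at day 3, -0.28 ± 0.07 (adjusted p = 0.027), and at day 7, -0.75 ± 0.07 (adjusted p = 5.92e-05). Lmod2 gave 5239 in CsA+peptide, 5563 in CsA and 5342 in untreated grafts at day 1, then 5740.1 in CsA+peptide, 4999 in CsA and 4772 in untreated grafts at day 3, and 3845 in CsA+peptide, 3859 in CsA and 3419 in untreated grafts at day 7. Leiomodin 2, which lengthens thin filaments, was lower in every day 7 array than in any earlier one, -0.54 ± 0.07 (adjusted p = 1.90e-04). Tnni3 gave 14259 in CsA+peptide, 13562 in CsA and 13791 in untreated grafts at day 1, then 12926 in CsA+peptide, 13401 in CsA and 11687 in untreated grafts at day 3, and 10435 in CsA+peptide, 10666 in CsA and 7841 in untreated grafts at day 7. Cardiac troponin I fell, -0.54 ± 0.08 (adjusted p = 6.30e-04), with the lowest value in the untreated day 7 graft. Tnnt2 gave 13486 in CsA+peptide, 12865 in CsA and 13027 in untreated grafts at day 1, then 13308 in CsA+peptide, 13476 in CsA and 12037 in untreated grafts at day 3, and 11250.3 in CsA+peptide, 11317 in CsA and 10922 in untreated grafts at day 7. Cardiac troponin T, which ties troponin to tropomyosin, fell by a smaller amount, -0.23 ± 0.05 (adjusted p = 0.00257). Tnnc1, the calcium-binding troponin C, and Tpm1, tropomyosin, did not pass at day 7, -0.07 ± 0.05 (adjusted p = 0.306) and -0.10 ± 0.04 (adjusted p = 0.0828). Tpm1 probe sets disagreed in direction, and one of the other 4 tested differed by 0.30 ± 0.14 (adjusted p = 0.0990) at day 7.

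All 3 titin and M-band genes fell at day 7 (33.8% of all probe sets). None passed at day 3, where 12.9% of all probe sets were lower and 14.6% higher. For 3 genes that says little about timing. Myom2 gave 12614 in CsA+peptide, 13090.3 in CsA and 12976 in untreated grafts at day 1, then 13764 in CsA+peptide, 13612 in CsA and 11739 in untreated grafts at day 3, and 8432 in CsA+peptide, 8798 in CsA and 6513 in untreated grafts at day 7. Myomesin 2, an M-band crosslinker, differed by -0.72 ± 0.08 (adjusted p = 1.20e-04). Myom1 gave 4213 in CsA+peptide, 4505 in CsA and 4024 in untreated grafts at day 1, then 4464 in CsA+peptide, 3895 in CsA and 3167 in untreated grafts at day 3, and 2943 in CsA+peptide, 3216 in CsA and 2128 in untreated grafts at day 7. Myomesin 1 differed by -0.64 ± 0.10 (adjusted p = 6.21e-04). Ttn gave 14031 in CsA+peptide, 13669 in CsA and 12929.8 in untreated grafts at day 1, then 14060.3 in CsA+peptide, 12867 in CsA and 11561 in untreated grafts at day 3, and 9266 in CsA+peptide, 10734 in CsA and 7819 in untreated grafts at day 7. Titin, at chr3:82059648-82332130, differed by -0.56 ± 0.08 (adjusted p = 3.45e-04). For each of the 3 the untreated day 7 graft was the lowest of the 9 arrays.

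**Figure D2:**
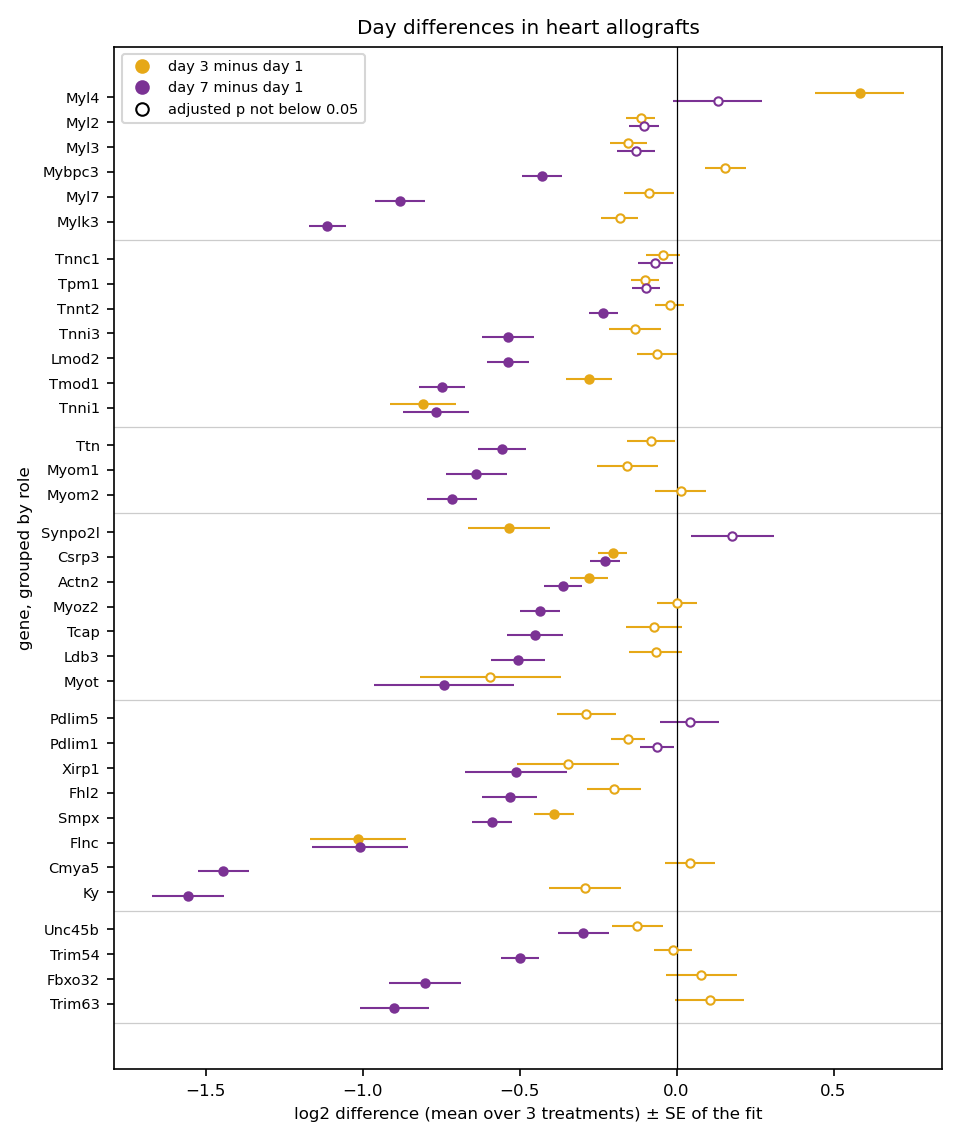
Points are log2 differences of each gene, averaged over 3 treatments, with the SE of the fit as bars; yellow is day 3 minus day 1, purple day 7 minus day 1, and open points have an adjusted p not below 0.05. Of the 35 genes, 27 have a filled purple point left of 0, and 8 have a filled yellow point, of which Myl4 alone is right of 0. These directions hold on the uncentred scale. When arrays are centred on the median level of other cardiomyocyte genes, 4 lower and 14 higher genes are called at day 7. That centring also raises the median of all probe sets, to above that of the 35 genes.

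In the Z-disc core, 6 of 7 genes fell by day 7 (33.8% of all probe sets). Myot gave 517 in CsA+peptide, 389.7 in CsA and 657 in untreated grafts at day 1, then 279 in CsA+peptide, 228 in CsA and 574 in untreated grafts at day 3, and 304 in CsA+peptide, 306 in CsA and 286 in untreated grafts at day 7. Myotilin, which binds alpha-actinin and filamin, was high in the untreated grafts until day 3 and differed by -0.74 ± 0.22 (adjusted p = 0.019) at day 7. Ldb3 gave 8051 in CsA+peptide, 8193 in CsA and 7125 in untreated grafts at day 1, then 8433 in CsA+peptide, 7498 in CsA and 6475 in untreated grafts at day 3, and 6109 in CsA+peptide, 6385 in CsA and 4202 in untreated grafts at day 7. Ldb3 (Cypher/ZASP) binds alpha-actinin, and it differed by -0.51 ± 0.08 (adjusted p = 0.00105). Of 4 other Ldb3 probe sets tested, 3 gave -0.45, -0.61 and -0.63, and the dimmest, at 97.4 to 252 at day 7, gave -1.95 ± 0.18. Tcap gave 14929 in CsA+peptide, 15281 in CsA and 15578 in untreated grafts at day 1, then 16086 in CsA+peptide, 12493 in CsA and 15221 in untreated grafts at day 3, and 11609.5 in CsA+peptide, 11635 in CsA and 10296 in untreated grafts at day 7. Telethonin, the titin cap, differed by -0.45 ± 0.09 (adjusted p = 0.00246). Myoz2 gave 14115 in CsA+peptide, 14006 in CsA and 14395 in untreated grafts at day 1, then 14817 in CsA+peptide, 14099 in CsA and 13643 in untreated grafts at day 3, and 10825 in CsA+peptide, 11389 in CsA and 9355 in untreated grafts at day 7. Calsarcin-1, a calcineurin-binding Z-disc protein, differed by -0.43 ± 0.06 (adjusted p = 5.09e-04). Actn2 gave 13244 in CsA+peptide, 13405 in CsA and 13169.8 in untreated grafts at day 1, then 11773 in CsA+peptide, 11289 in CsA and 9830.1 in untreated grafts at day 3, and 9994 in CsA+peptide, 11176 in CsA and 9862 in untreated grafts at day 7. Alpha-actinin 2, the main thin filament anchor, fell already at day 3, -0.28 ± 0.06 (adjusted p = 0.0145), and was -0.36 ± 0.06 (adjusted p = 0.00111) at day 7. Csrp3, muscle LIM protein, also fell at both days, -0.20 ± 0.05 (adjusted p = 0.0168) and -0.23 ± 0.05 (adjusted p = 0.00296).

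Synpo2l, an actin-associated Z-disc protein, is described outside the naming rule, since its course was picked out after its values were seen. Synpo2l gave 4397 in CsA+peptide, 4169 in CsA and 4081 in untreated grafts at day 1, then 3878 in CsA+peptide, 2689.9 in CsA and 2347 in untreated grafts at day 3, and 4769.8 in CsA+peptide, 5476 in CsA and 4149 in untreated grafts at day 7. It fell at day 3, -0.53 ± 0.13 (adjusted p = 0.0215), rose between days 3 and 7, 0.71 ± 0.13 (adjusted p = 0.00226), and was not called at day 7 against day 1, 0.18 ± 0.13 (adjusted p = 0.263). The day 3 fall was small in the CsA+peptide graft. Pdlim5, a PDZ and LIM domain protein, likewise rose between days 3 and 7, 0.33 ± 0.09 (adjusted p = 0.0177).

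Of 8 Z-disc and intercalated disc adaptors 6 fell by day 7 (33.8% of all probe sets), Ky and Cmya5 by more than any other member. Ky gave 746 in CsA+peptide, 729 in CsA and 561 in untreated grafts at day 1, then 590.1 in CsA+peptide, 753 in CsA and 366 in untreated grafts at day 3, and 246 in CsA+peptide, 251 in CsA and 168 in untreated grafts at day 7. Ky, kyphoscoliosis peptidase at chr8:111965862-112005206, whose loss causes a muscle disease in mice, differed by -1.56 ± 0.11 (adjusted p = 1.49e-05) at day 7, with no overlap of day 7 with earlier arrays. The kept Ky probe set read 108 to 135 in T cells, and its untreated day 7 graft value lay below that array's median (219), so its day 7 values were near the floor. A second Ky probe set gave 42.8 to 135 at day 7 and a larger difference, -2.64 ± 0.17. Cmya5 gave 5082 in CsA+peptide, 5172 in CsA and 4641 in untreated grafts at day 1, then 5736 in CsA+peptide, 5295 in CsA and 4386 in untreated grafts at day 3, and 2069 in CsA+peptide, 2036 in CsA and 1415 in untreated grafts at day 7. Myospryn, a scaffold for protein kinase A, did not pass at day 3, 0.04 ± 0.08 (adjusted p = 0.719), and differed by -1.44 ± 0.08 (adjusted p = 4.54e-06) at day 7. Flnc gave 5274 in CsA+peptide, 4892 in CsA and 5383 in untreated grafts at day 1, then 3343 in CsA+peptide, 2097 in CsA and 2383 in untreated grafts at day 3, and 2434 in CsA+peptide, 2950.1 in CsA and 2349 in untreated grafts at day 7. Filamin C, an actin crosslinker, was already lower at day 3, -1.01 ± 0.15 (adjusted p = 0.00451), and was -1.01 ± 0.15 (adjusted p = 5.95e-04) at day 7. Between days 3 and 7 it moved by -0.46 in CsA+peptide, 0.49 in CsA and -0.02 in untreated grafts. Smpx gave 6798 in CsA+peptide, 6705 in CsA and 6847 in untreated grafts at day 1, then 5410.4 in CsA+peptide, 5526 in CsA and 4627 in untreated grafts at day 3, and 4484 in CsA+peptide, 4892 in CsA and 4183 in untreated grafts at day 7. Smpx, a small muscle protein, fell at day 3, -0.39 ± 0.06 (adjusted p = 0.00576), and day 7, -0.59 ± 0.06 (adjusted p = 9.86e-05). Fhl2 gave 11332 in CsA+peptide, 10995 in CsA and 11018 in untreated grafts at day 1, then 10623 in CsA+peptide, 10534 in CsA and 8116 in untreated grafts at day 3, and 8614 in CsA+peptide, 8425 in CsA and 6245 in untreated grafts at day 7. Fhl2 differed by -0.53 ± 0.09 (adjusted p = 8.74e-04), lowest in the untreated day 7 graft. Xirp1, an intercalated disc actin-binding protein, fell as well, -0.51 ± 0.16 (adjusted p = 0.0241), and Pdlim1 and Pdlim5 did not pass. A second Pdlim5 probe set, dimmer than the kept one, was higher at day 7, 0.54 ± 0.14 (adjusted p = 0.00827). Over all members, 17 further probe sets were tested at day 7 minus day 1, of which 10 were lower, 1 higher and 6 not called.

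**Figure D3:**
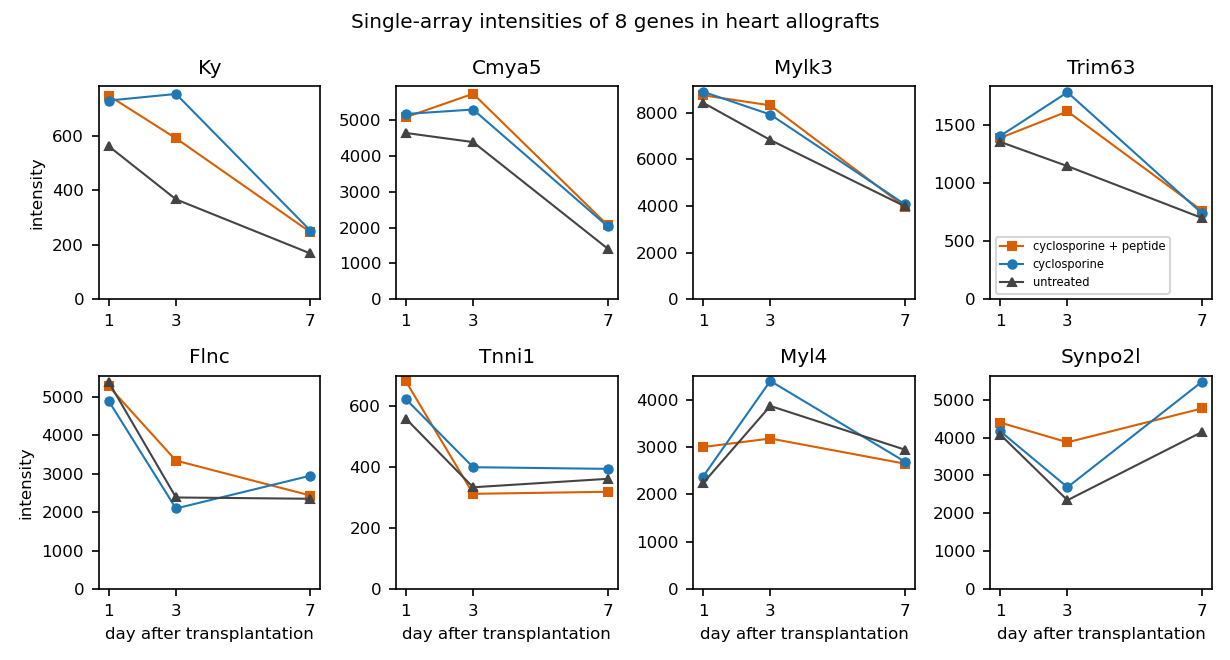
Intensity on single arrays against day after transplantation for 8 genes (orange squares, cyclosporine plus peptide; blue circles, cyclosporine; grey triangles, untreated), each axis starting at 0. Ky, Cmya5, Mylk3 and Trim63 are low at day 7, Flnc and Tnni1 are low from day 3, Myl4 peaks at day 3 and Synpo2l dips at day 3 in the CsA and untreated grafts.

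Of 4 genes of sarcomere turnover and assembly, 4 fell by day 7 (33.8% of all probe sets). None passed at day 3, where 12.9% of all probe sets were lower and 14.6% higher. For 4 genes that says little about timing. Trim63 gave 1388 in CsA+peptide, 1404 in CsA and 1353 in untreated grafts at day 1, then 1615 in CsA+peptide, 1779.6 in CsA and 1144 in untreated grafts at day 3, and 762 in CsA+peptide, 739.5 in CsA and 699 in untreated grafts at day 7. Trim63 (MuRF1), a ubiquitin ligase for sarcomere proteins, differed by -0.90 ± 0.11 (adjusted p = 1.89e-04). Fbxo32 gave 171 in CsA+peptide, 176 in CsA and 179 in untreated grafts at day 1, then 172 in CsA+peptide, 209.8 in CsA and 179 in untreated grafts at day 3, and 79 in CsA+peptide, 94.1 in CsA and 111 in untreated grafts at day 7. Fbxo32 (atrogin-1), the other classical atrophy ligase, differed by -0.80 ± 0.11 (adjusted p = 4.43e-04). It was dim and lay below the array median on every heart array, at days 1 and 3 as well as day 7 (day 7 medians 212 to 220). Its day 7 values reached its T cell range (43.4 to 86.6). The filter on low values needed 3 arrays, so its brighter days 1 and 3 could carry it into the test. Trim54 gave 3485 in CsA+peptide, 3519 in CsA and 3626 in untreated grafts at day 1, then 3697 in CsA+peptide, 3465 in CsA and 3394 in untreated grafts at day 3, and 2376 in CsA+peptide, 2452 in CsA and 2684 in untreated grafts at day 7. Trim54 (MuRF3) differed by -0.50 ± 0.06 (adjusted p = 1.80e-04). Unc45b gave 1730.2 in CsA+peptide, 1786 in CsA and 1394 in untreated grafts at day 1, then 1444 in CsA+peptide, 1613 in CsA and 1423 in untreated grafts at day 3, and 1191 in CsA+peptide, 1496 in CsA and 1295 in untreated grafts at day 7. Unc45b, the myosin chaperone, had the smallest fall of the 4, -0.30 ± 0.08 (adjusted p = 0.0117).

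Related gene lists moved at day 7 minus day 1 as follows, where 33.8% of all probe sets were called lower and 30.9% higher. Of 17 other contractile genes tested, 12 fell and 2 rose (median -0.38), of 8 intercalated disc genes 8 fell (-0.58), of 12 costamere genes 9 fell and 3 rose (-0.59), and of 11 cardiac transcription factors 10 fell (-0.59). The largest difference within each list was Obsl1, an obscurin-like cytoskeletal linker, at -1.49 (then Pdlim3 at -1.23 and Nrap at -1.12), plakoglobin (Jup) at -1.15, beta-sarcoglycan (Sgcb) at -0.85 and Gata6 at -1.001. Of 21 fatty acid oxidation genes 21 fell (-1.13), and of 24 oxidative phosphorylation genes 23 (-0.59). Among 7 stress-responsive cardiac genes 4 rose and 1 fell (0.28), with Atf3 at 1.05, Ankrd2 at -0.87 and Nppb, B-type natriuretic peptide, at 0.68. Among 7 skeletal isoforms tested, of 15 measured, 4 rose and 2 fell, with Myl1 at 1.79, Ckm at -1.02 and Tpm3 at 0.96. At day 7 the 15 summed to 23906 to 26885 in grafts and 14648 to 14910 in T cell arrays, so this list is not confined to muscle. The part of other cells in its differences was not tested. Mixed lists were the muscle chaperones, with 5 lower and 2 higher of 10 (-0.13), protein degradation with FoxO, with 5 lower and 1 higher of 11 (-0.24), and atrial genes, with 3 lower and 1 higher of 4 (-0.64).

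Day 7 differences were smaller among the brightest members. The 15 members in the top 1% of heart signal (above 7898) had a median of -0.36 at day 7 minus day 1 and 10 called lower, and the other 20 had a median of -0.69 and 17 called lower. Over the 35 genes, which share the arrays, Spearman's rho of mean signal with the difference was 0.50, given as a description. The highest signal on any heart array was 19150.2 to 21860.4, and Csrp3, the brightest member, gave 15614 to 19166, and whether the scanner's range compressed the brightest genes was not tested.

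**Figure D4:**
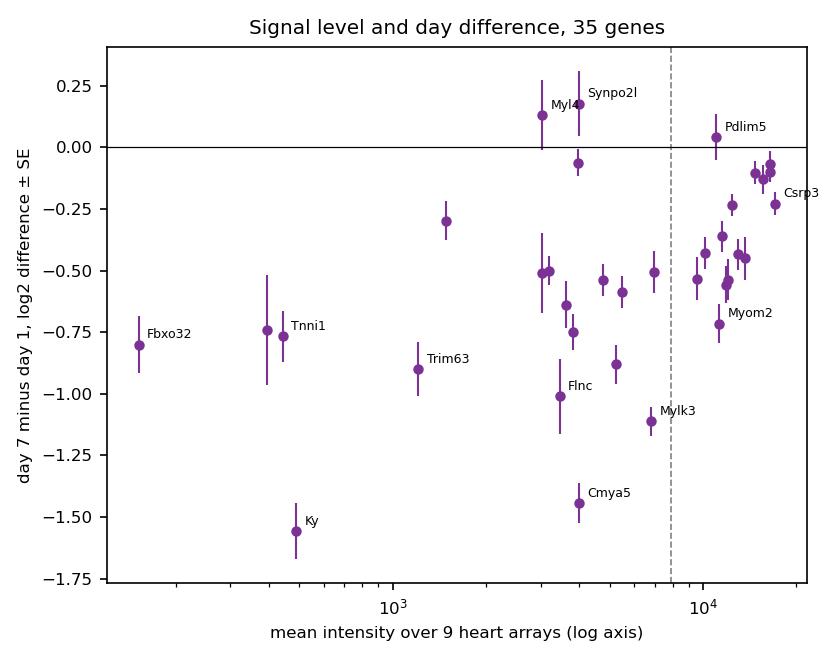
Day 7 minus day 1 log2 difference with the SE of the fit (y) against mean intensity over 9 heart arrays (x, log axis), 1 point per gene; the dashed line is the top 1% of heart signal. Points right of the line lie between -0.72 and 0.04, and those left of it between -1.56 and 0.18.

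No member passed the test between treatments. In limma 0 of 35 members and 0% of 19737 probe sets passed in each of the 3 heart comparisons. At an unadjusted p below 0.05 in limma, 13 members (37.1%) and 3156 of all probe sets (16%) passed for CsA+peptide minus untreated. For CsA minus untreated it was 14 members (40%) and 2288 probe sets (11.6%). For CsA+peptide minus CsA it was 0 members and 954 probe sets (4.83%). The members share the arrays, so these shares are given as a description. Median differences were 0.10, 0.11 and 0.00 (all probe sets: -0.02, 0.00 and -0.02), with 28, 27 and 18 of 35 members above 0. The first 2 comparisons share the untreated arrays. By day, the CsA+peptide medians were 0.04, 0.20 and 0.10 and the CsA medians -0.003, 0.20 and 0.18 for days 1, 3 and 7.

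Ky had the largest treatment value, 0.53 ± 0.11 (adjusted p = 0.195) for CsA+peptide and 0.64 ± 0.11 (adjusted p = 0.169) for CsA, above 0 on all 3 days in both. Ldb3 differed by 0.36 ± 0.08 and 0.34 ± 0.08, Myom1 by 0.34 ± 0.10 and 0.35 ± 0.10, and Cmya5 by 0.35 ± 0.08 and 0.32 ± 0.08 (CsA+peptide first, CsA second), each with an adjusted p not below 0.195. Myot went the other way, -0.42 ± 0.22 and -0.64 ± 0.22, at days 1 and 3 and not at day 7. For these genes the values did not pass the test, and the arrays number 3 a treatment. At days 1 and 3 the beta-actin 3′ to 5′ ratio was 2.44 and 1.82 in CsA+peptide and 2.27 and 1.87 in CsA grafts. In untreated grafts it was 1.84 and 1.64. For GAPDH the ratio was 1.574 and 1.625 in CsA+peptide, 1.495 and 1.506 in CsA and 1.504 and 1.649 in untreated grafts. The part of either ratio in these values was not tested. Whether a treatment difference depends on tissue was tested as an interaction, in which 0 members passed (0.00448% of 22327 probe sets for each treatment against untreated). For the 29 members that did not pass the filter on low values in T cells, the T cell side rests on values near the floor. The interaction therefore cannot decide for them whether a treatment difference depends on tissue.

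**Figure D5:**
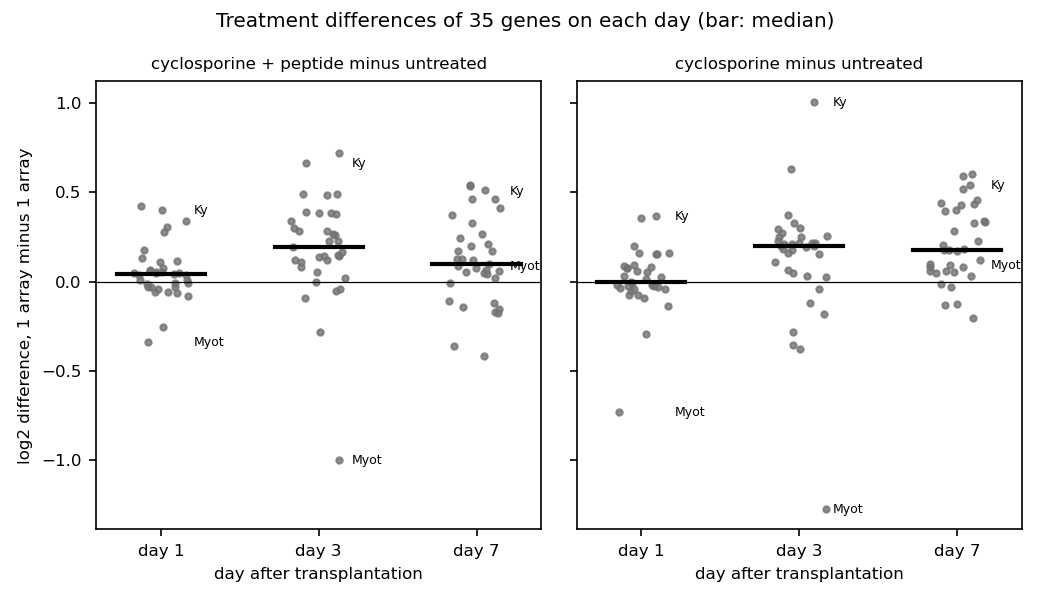
Log2 differences of 35 genes between single arrays of the same day, cyclosporine plus peptide minus untreated (left) and cyclosporine minus untreated (right); each point is a gene and the bar the median. Medians lie near 0 at day 1 and between 0.10 and 0.20 at days 3 and 7, with Ky above and Myot below at day 3.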

How the data were processed

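For 18 arrays the authors deposited linear intensity values, 1 for each probe set. Biotinylated cRNA had been prepared, per the labels' protocols. The sources used here name neither software nor normalization. Intensities below 0 (0.138%) were set to 0, and log2(intensity + 16) was analysed unscaled. After 57 control probe sets were left out, 31042 remained. Tests took the probe sets that exceeded an array's percentile 40 on 3 or more arrays. limma 3.58.1 in R 4.3.3 fitted treatment and day as factors to the 9 arrays of a tissue (4 residual degrees of freedom), with a trend and Benjamini-Hochberg adjustment over all probe sets tested, at 0.05. On simulated data for day 7 minus day 1 in heart, 200 of 19144 probe sets were shifted. Shifts of 0.5 and 1 were recovered at rates of 47.8% and 85.2%, and a simulation made 5.4 false calls in the mean. In the real comparison 33.8% of probe sets were called lower and 30.9% higher, so these rates need not hold there. The number of arrays limits the precision.

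Members, lists, tests and alternatives were chosen with earlier results of these data known. Values in every heart array are given for members called in a heart comparison, up to 5 a role by day 7 minus day 1, and for the 3 with the largest treatment values. A block for T cell and graft arrays of the same treatment and day and a pair of ways of centring on cardiomyocyte genes were added after seeing the data, and the promoters were chosen, and once changed, after values were seen (an earlier set held Tnni1 in place of Myl4 and Synpo2l). All 35 Entrez identifiers matched RefSeq GRCr8.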

Additional observations from a re-analysis of the deposited data

How the results depend on the processing

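Of 3010 gene values recomputed under alternatives, 2689 kept their direction and side of the threshold, 81 lost and 47 gained a call, and 193 changed sign, of which 59 are printed here (all members at day 7 minus day 1, and those called at day 7 minus day 3), all under the 3 ways of centring on other cardiomyocyte genes. All 3 are given, since they disagree. Centring on the median level of the 13 genes was planned. It follows the genes of middling level, Cox6a2 on 4 arrays, Ckmt2 and Fabp3 on 2 each and Myh6 on 1. The other 2, each gene centred on its own mean first, and the same without Ckmt2, Fabp3, Cox6a2, Cox7a1 and Cox8b, were added after seeing the data, and those 5 genes were picked after their differences were seen. Day 7 minus day 1 (27 lower, 0 higher, median -0.51) became 4 lower and 14 higher (0.16), 8 and 10 (-0.04), and 18 and 7 (-0.22) in that order, while all probe sets shifted to medians of 0.65, 0.45 and 0.27. Day 7 minus day 3 (21 lower, 2 higher) became 5 and 16, 8 and 13, and 12 and 11. Day 3 minus day 1 (7 lower, 1 higher) became 4 and 1, 4 and 2, and 8 and 1.

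Under the first centring the day 7 minus day 1 values that changed sign were Myl2 0.57, Myl3 0.54, Mybpc3 0.24, Tnnt2 0.44, Tnni3 0.14, Tnnc1 0.61, Tpm1 0.58, Lmod2 0.14, Ttn 0.12, Myom1 0.035, Actn2 0.31, Tcap 0.22, Ldb3 0.17, Csrp3 0.45, Myoz2 0.24, Pdlim1 0.61, Fhl2 0.14, Xirp1 0.16, Smpx 0.086, Trim54 0.17, Unc45b 0.38. Under the second they were Myl2 0.37, Myl3 0.34, Mybpc3 0.041, Tnnt2 0.24, Tnnc1 0.40, Tpm1 0.37, Actn2 0.11, Tcap 0.018, Csrp3 0.24, Myoz2 0.035, Pdlim1 0.41, Unc45b 0.17, and under the third Myl2 0.19, Myl3 0.17, Tnnt2 0.061, Tnnc1 0.23, Tpm1 0.20, Csrp3 0.067, Pdlim1 0.23. For day 7 minus day 3, 19, 10 and 8 members changed sign in that order. Those called before centring were Myl4 0.081, Tnnt2 0.32, Tnni3 0.13, Tmod1 0.063, Lmod2 0.057, Ttn 0.058, Myom1 0.052, Tcap 0.15, Ldb3 0.094, Myoz2 0.099, Fhl2 0.20, Smpx 0.34, Trim54 0.044 under the first, Tnnt2 0.19, Tcap 0.019, Fhl2 0.063, Smpx 0.20 under the second and Tnnt2 0.085, Smpx 0.099 under the third.

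The 7 lower at day 3 became 11 with quantile normalization, 14 with centring on array medians, 4 without the untreated arrays and 3 without the CsA arrays, and the 1 higher became 2 and 0 without those arrays. Without the CsA arrays 1 member was higher at day 7 minus day 3, and without the CsA+peptide arrays 1 was higher at day 7 minus day 1. With the top 1% left out, which tests fewer genes, 17 were lower at day 7 minus day 1, 13 lower and 1 higher at day 7 minus day 3, and 20 lower in T cells than in grafts. In T cells at day 7 minus day 1, 1 member, Fhl2, was called with centring on array medians, pseudocount 64 and robust fitting. In the 3 heart treatment comparisons and the tissue interaction, 0 members were called under each alternative run, with the limit on the interaction stated above for members low in T cells. The cause of these shifts was not tested. No paired analysis was possible by replicate number because each group has 1 array and the labels give no such numbers; treatment and day as factors already set day differences within treatments. With the 9 pairs of T cell and heart arrays of the same treatment and day as a block, added after seeing the data, 35 members were again lower and 0 higher in T cells.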
